A study of Mus musculus with 12 samples.

Results

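The genes described are 32 genes of epidermal differentiation and of the skin barrier, chosen by name, out of 21883 protein-coding genes placed on the mouse chromosomes. A peak was assigned to a gene when its midpoint lay inside the gene or within 5 kb of its start or end. By this rule the 32 genes held 0 of the 2909 wild-type (WT) p53 peaks, 1 of the 1101 K17KO p53 peaks and 10 of the 5464 H3K4me3 peaks. The samples were chromatin immunoprecipitations from back skin of mice 8 to 10 weeks old under a protocol of 5 Gy of ionizing radiation. The 12 libraries fall into 6 groups of 2, with times of T0 and 6 h for each of H3K4me3 in WT mice, p53 in WT mice and p53 in K17KO mice. Every library carries the label of irradiation, including those of T0, and the labels spell the genotype K17KO without a fuller name. They do not say whether the 2 libraries of a group came from separate animals. Whole back skin holds epidermis, hair follicles, dermis and blood-derived cells, so no peak can be assigned to a cell type, and fewer cells of a type cannot be told apart from less signal per cell.

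The epidermis renews itself from a basal layer, and cells that leave it build the barrier as they move outward. Keratinocytes first tie themselves together with desmosomes, then load their rim with precursor proteins such as involucrin and loricrin, which transglutaminases cross-link into the cornified envelope. Filaggrin and its relatives pack keratin filaments, lipoxygenases and fatty acid elongases make the lipids that seal the outer layers, and transcription factors such as Klf4 and the Grainyhead-like proteins switch the programme on. Most of the envelope genes sit side by side in a cluster called the epidermal differentiation complex. The antibody against p53 marks sites bound by the transcription factor that answers DNA damage, and the antibody against trimethylated lysine 4 of histone H3 (H3K4me3) marks active start sites.

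Each list is a single set of peak calls that names no time point, library or replicate. The comparison of T0 with 6 h could not be made, no value has a replicate error, and no test between groups was possible. One p53 list names K17KO and the other names no genotype, so WT was inferred for the latter. Folds and q-values are the authors' own for each peak, the fold being fragment pileup plus 1 divided by background plus 1. The intervals given below are exact Poisson 95% intervals of the fragment count with the background taken as fixed, so they cover counting error only. Depth differed between the lists: a median peak of WT p53 held 7 fragments with 0.992 as background, one of K17KO p53 held 11 with 1.39, and one of H3K4me3 held 148 with 90.7. A peak was found at 6.74% of all protein-coding genes for WT p53, at 3.79% for K17KO p53 and at 23.9% for H3K4me3. The p53 lists also differed in the q-values they admitted, the lowest −log10 q being 0.376 in WT and 1.04 in K17KO. A q-value of 0.1 was met by 1754 of the 2909 WT peaks and by all 1101 K17KO peaks. A q-value of 0.01 was met by 359 and 804. With that limit 0.818% of genes had a WT peak and 2.77% a K17KO peak, the reverse order. Shares and calls of the p53 lists are thus not directly comparable. A gene without a peak is therefore one at which nothing was called, which does not show that the protein or the mark was absent.

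In WT skin no p53 peak lay in or near any of the 32 genes (0 of 32), where the share over all protein-coding genes was 6.74%. Cdkn1a, the cell cycle inhibitor p21 and a standard p53 target, had a WT p53 peak of 6.57-fold in the same list, and the apoptosis gene Bax one of 6.70-fold. In the K17KO p53 list Bax had a peak of 4.66-fold and Cdkn1a had none, the nearest being 59.3 kb away. The closest WT p53 peak lay 25.8 kb from Cdsn, which encodes corneodesmosin, an adhesive protein of the outermost cell layers. Next came Grhl1, a Grainyhead-like transcription factor gene, at 78.2 kb. All other members were more than 100 kb from a WT p53 peak, up to 814 kb for Klf4. The median distance was 336 kb over the 32 genes and 242 kb over all protein-coding genes. Among the structural genes of the envelope the distances ran from 124 kb at Flg2, a filaggrin relative, to 634 kb at Sprr1b, a small proline-rich envelope protein. The desmosomal cadherin genes Dsg1a, Dsc1 and Dsc3 were 349, 577 and 690 kb away.

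**Figure D1:**
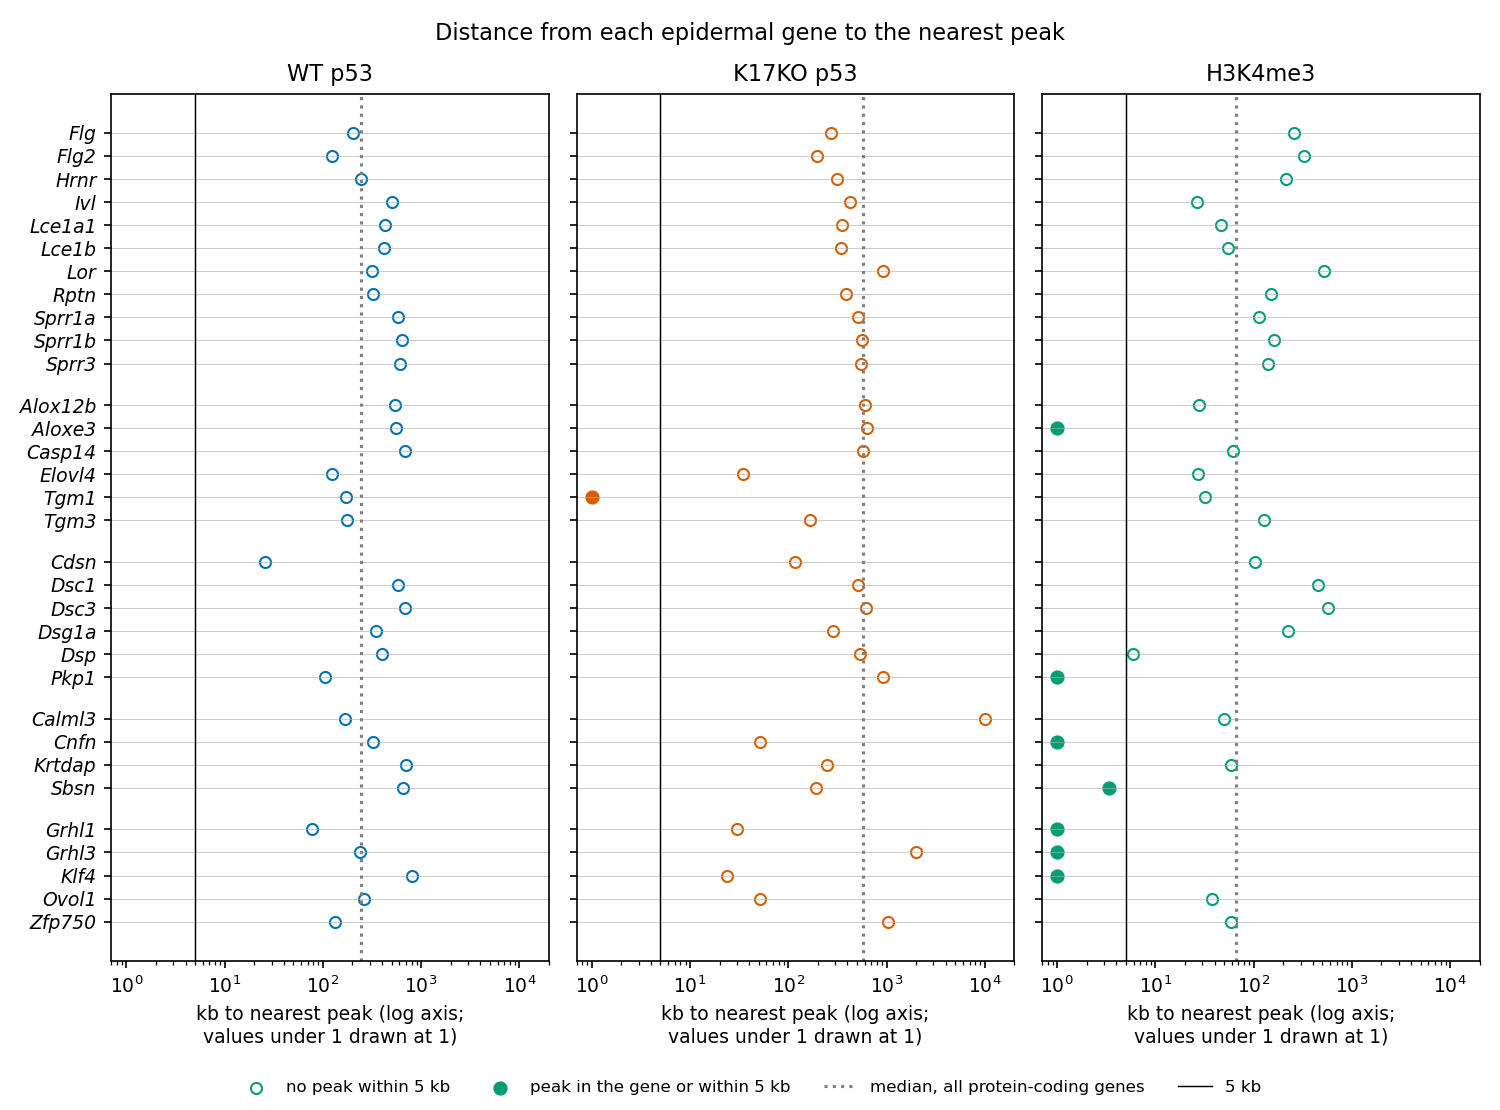
Distance in kb (log axis) from each of the 32 epidermal genes to the nearest peak midpoint of each list, grouped from top to bottom as envelope proteins, enzymes, desmosomes, other proteins of differentiated layers and transcription factors. Filled points are genes with a peak inside or within 5 kb: none for WT p53, Tgm1 for K17KO p53 and 7 genes for H3K4me3. The dotted line is the median over all protein-coding genes.

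In K17KO skin Tgm1 held the only p53 peak among the 32 genes (1 of 32, or 3.12%, against 3.79% of all protein-coding genes). Tgm1 encodes transglutaminase 1, the membrane-bound enzyme that cross-links the cornified envelope. The peak spanned chr14:55705551-55706014 (mm10), inside the gene and 5773 bp from its nearer end, with its midpoint 7306 bp downstream of the nearest RefSeq start site. It rested on 14 fragments (interval 7.65 to 23.5) over a background of 3.06. Its deposited fold was 3.70 (counting interval 2.13 to 6.03), and it ranked 937 of 1101 by fold and 753 by p-value. It thus stood in the weaker part of its list, below the list's median fold of 4.60, although its −log10 q of 2.08 met a q-value of 0.01. In the WT list the nearest p53 peak to Tgm1 was 172 kb away. Whether the lists differ at Tgm1 was not tested, since each genotype is a single list.

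Other K17KO p53 peaks came within 50 kb of 3 members without reaching the 5 kb limit. With Tgm1 this made 4 of 32 members within 50 kb, where the share over all protein-coding genes was 9.73%. Klf4, which encodes a zinc finger factor needed for the barrier, was 23.8 kb from a K17KO p53 peak, Grhl1 was 30.3 kb away and Elovl4, an elongase for very long acyl chains, 34.3 kb. Ovol1, a zinc finger factor gene, followed at 51.4 kb and Cnfn, which encodes the envelope protein cornifelin, at 51.8 kb. At the far end, Calml3, a calmodulin-like protein gene, was 9980 kb from the nearest K17KO p53 peak and Grhl3 was 1990 kb away. The median over the 32 genes was 373 kb and over all protein-coding genes 581 kb.

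H3K4me3 peaks lay at 7 of the 32 genes (21.9%), close to the 23.9% of all protein-coding genes. The 7 were the transcription factor genes Klf4, Grhl1 and Grhl3, the desmosomal gene Pkp1, the lipoxygenase gene Aloxe3, Cnfn and Sbsn. By role they were 3 of 5 transcription factors, 1 of 6 desmosomal genes, 1 of 6 enzymes, 2 of 4 other proteins of the differentiated layers and 0 of 11 envelope and filaggrin-type genes. The highest fold per gene had a median of 1.67 over the 7 and of 1.62 over all genes with a peak. Within 50 kb of an H3K4me3 peak were 14 of the 32 genes (45.1% of all genes), and the median distance was 57 kb against 66.8 kb. Of the 10 peaks, 8 met a q-value of 0.1 and 6 a q-value of 0.01.

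Klf4 had 3 H3K4me3 peaks, and 4.12% of the genes with any peak in this list had that many or more. One lay upstream, with its midpoint 573 bp before the start site, and rested on 147 fragments over 98.2 (1.49-fold, counting interval 1.26 to 1.75). The others lay 732 bp and 2340 bp downstream of the start, with 201 fragments over 146 (1.38-fold, 1.19 to 1.58) and 178 over 137 (1.29-fold, 1.11 to 1.5). The peaks thus stood on each side of the start site, and none overlapped the 300-base window around it that is printed further on. The upstream peak lay inside the noncoding gene Gm12506, and the downstream peak at 2340 bp had a −log10 q of only 0.525.

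The Grainyhead-like genes had their peaks inside the gene and far from a start site. At Grhl3, a regulator of barrier formation and epidermal closure, the peak at chr4:135544975-135545838 was 864 bp wide and rested on 45 fragments (32.8 to 60.2) over 15.0. Its fold of 2.88 (2.12 to 3.84) was the highest among the 32 genes, and it lay 28226 bp downstream of the start site and 3519 bp from the other end of the gene. At Grhl1, which acts on desmosomal cadherin genes, the peak at chr12:24593094-24593512 had 39 fragments over 15.9 (2.37-fold, 1.7 to 3.22), 12584 bp downstream of the nearest start site. The remaining transcription factor genes, Ovol1 and Zfp750, a zinc finger gene downstream of p63, had none within 5 kb, and their nearest H3K4me3 peaks were 38.1 and 58.8 kb away.

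Among desmosomal genes Pkp1, which encodes plakophilin 1, had peaks 330 bp and 2718 bp inside an end of the gene. The first had 195 fragments over 138 (1.41-fold, 1.22 to 1.62) and the second 101 over 70.1 (1.43-fold, 1.17 to 1.74), with −log10 q values of 2.31 and 0.743. Dsp, which encodes desmoplakin, the link from desmosomes to keratin filaments, had its nearest peak 5.92 kb away and so fell just outside the rule. The gene just inside it was Sbsn, at 3.39 kb. For Dsg1a, Dsc1, Dsc3 and Cdsn the nearest H3K4me3 peak was 104 to 564 kb away.

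Of the enzymes, Aloxe3, a lipoxygenase of the barrier lipid pathway, had a peak 48 bp inside an end of the gene, at chr11:69125342-69125589, with 129 fragments over 76.7 (1.67-fold, 1.40 to 1.99). Its partner in the pathway, Alox12b, lies next to it and had no peak within 5 kb, the nearest being 27.6 kb away. The nearest peaks to Elovl4 and Tgm1 were at 27.2 and 32 kb. For Casp14, a caspase of cornification, the distance was 61.9 kb, and for Tgm3, a soluble transglutaminase, 129 kb.

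At Cnfn the midpoint of the peak lay 271 bp downstream of the start site, the shortest such distance among the members with a known start-site window. It rested on 21 fragments (13.0 to 32.1) over a background of 7.34, the lowest background of the 10 peaks, and its fold was 2.64 (1.68 to 3.97). The peak counted for Sbsn, which encodes suprabasin, lay 3391 bp outside that gene and inside the neighbouring gene Tmem147 (199 fragments over 120, 1.66-fold, 1.44 to 1.90). It was also within 5 kb of Atp4a and Gapdhs, and the nearest RefSeq start site of Sbsn was 22188 bp from it. The Aloxe3 peak was likewise within 5 kb of a neighbour, Hes7. At Klf4, Grhl1, Grhl3 and Pkp1 the peaks had no other protein-coding gene within 5 kb. Krtdap, a secreted keratinocyte protein gene, and Calml3 had none within 50 kb.

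**Figure D2:**
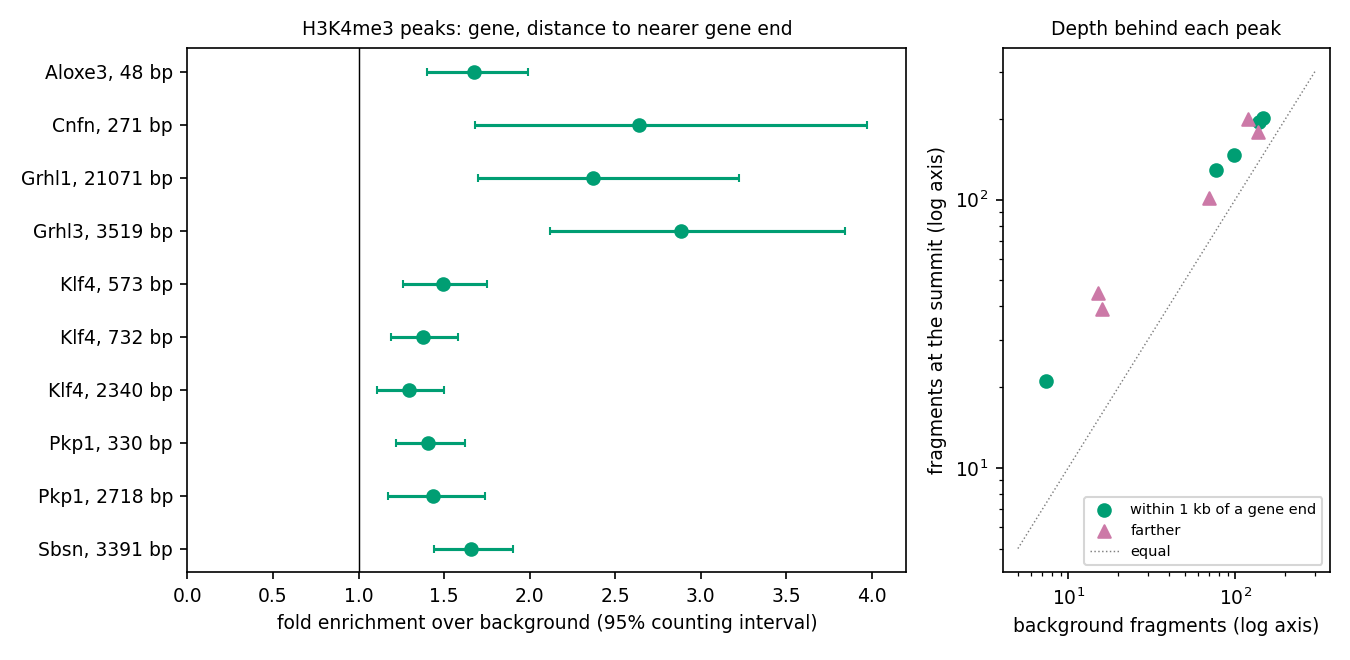
Left, fold enrichment of the 10 H3K4me3 peaks at the epidermal genes with the 95% counting interval, labelled by gene and distance of the midpoint to the nearer gene end. Right, fragments at the summit against background fragments (log axes; circles within 1 kb of a gene end, triangles farther, dotted line equal values). The peaks of Grhl3 (2.88-fold), Cnfn and Grhl1 had the highest folds and the lowest backgrounds, and the other 7 lay between 1.29-fold and 1.67-fold over backgrounds of 70.1 to 146.

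Low background went with high fold among the called peaks of the H3K4me3 list at large. Over a low background only a high fold gives a small Poisson p-value. The relation is thus at least partly built into the calling of peaks and is not a separate finding. Peaks within 1 kb of a protein-coding gene end had a median fold of 1.55 over a median background of 121 fragments, and the others 2.17 over 23.4. The background of these calls was thus itself high near gene ends, and no source used here names the control behind it. At Klf4, Pkp1, Sbsn and Aloxe3 a peak marks a rise of at most 1.67-fold over a background of 70.1 fragments or more. How far the background bears on which genes were called was not tested.

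The 11 genes for envelope and filaggrin-type proteins, Ivl, Lor, Flg, Flg2, Hrnr, Rptn, Sprr1a, Sprr1b, Sprr3, Lce1a1 and Lce1b, lie together on chromosome 3 from 92080271 to 93399442. None of them had a peak in any list, whereas 6.74%, 3.79% and 23.9% of all protein-coding genes had one for WT p53, K17KO p53 and H3K4me3. The 11 genes are short, with a median of 2.87 kb against 17.2 kb over all protein-coding genes, and a short gene offers less room for a peak. How far length bears on the absence of calls was not tested. The 1.32 Mb between their outer ends held 1 peak of each list, or 0.758 per Mb. The whole genome held 1.07 WT p53 peaks, 0.399 K17KO p53 peaks and 2.01 H3K4me3 peaks per Mb. The density was thus below the genome's for WT p53 and H3K4me3 and above it for K17KO p53, each on a single peak. The H3K4me3 peak, at chr3:92600065-92600309, rested on 8 fragments over 1.87 (3.14-fold, −log10 q 0.866). It lay 26.4 kb from Ivl, the involucrin gene, 46.3 kb from Lce1a1 and 55.5 kb from Lce1b, which encode late envelope proteins, and 4634 bp from Lce6a. The WT p53 peak was inside Tdpoz8 (6 fragments over 0.906, 3.67-fold) and the K17KO p53 peak 9608 bp from Lce3f (9 over 0.956, 5.11-fold). Of the 49 protein-coding genes in this stretch, 1 had an H3K4me3 peak by the rule (Lce6a), 1 a WT p53 peak (Tdpoz8) and 0 a K17KO p53 peak. Lor, the loricrin gene at one edge of the group, was 517 kb from the nearest H3K4me3 peak, and the filaggrin gene Flg 255 kb. Neighbouring genes share the same intervals between peaks, so the 11 are not independent observations.

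**Figure D3:**
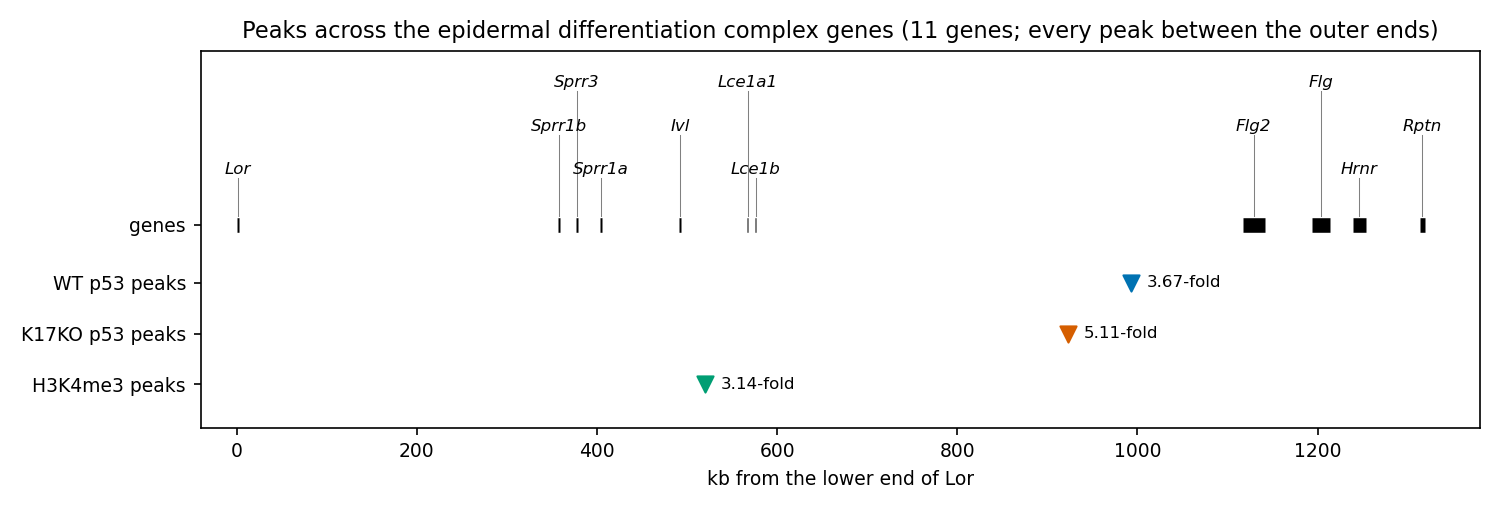
Positions of the 11 genes of the epidermal differentiation complex (black bars) and of every peak between their outer ends (triangles, with the deposited fold), in kb from the lower end of Lor. Each list has a single peak here, outside all 11 genes.

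Start-site sequences of the complex were set beside those of members with an H3K4me3 peak. RefSeq windows from 250 bases before to 50 bases after the start (assembly GRCm38.p6, the coordinates of mm10) were used, one a gene at its outer start site, and 17491 protein-coding genes had one. All 11 genes of the complex had a window. Only 13 of the other 21 members did, so composition was not summarised over all 32. The sequences below are the windows of Klf4 and Grhl3, transcription factor genes with an H3K4me3 peak, of Cnfn, with a peak just downstream, and of Ivl and Lor, envelope genes with none. They run 5′ to 3′ on the gene's strand, and capitals mark each CG pair, the letters TATAAA and the AP-1 letters TGANTCA.
Klf4 (chr4:55532426-55532725, minus strand): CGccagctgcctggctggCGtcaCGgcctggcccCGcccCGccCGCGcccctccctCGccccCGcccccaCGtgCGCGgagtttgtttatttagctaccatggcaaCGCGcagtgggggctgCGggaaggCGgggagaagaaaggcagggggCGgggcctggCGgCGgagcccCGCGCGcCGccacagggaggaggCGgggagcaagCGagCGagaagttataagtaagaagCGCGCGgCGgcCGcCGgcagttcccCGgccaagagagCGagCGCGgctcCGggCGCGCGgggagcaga
Grhl3 (chr4:135573583-135573882, minus strand): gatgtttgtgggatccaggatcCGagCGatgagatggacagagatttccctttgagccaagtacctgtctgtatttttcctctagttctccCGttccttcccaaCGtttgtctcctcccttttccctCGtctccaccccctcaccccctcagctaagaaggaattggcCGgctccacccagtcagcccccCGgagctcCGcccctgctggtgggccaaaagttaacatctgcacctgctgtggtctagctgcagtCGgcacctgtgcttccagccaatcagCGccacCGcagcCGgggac
Cnfn (chr7:25369675-25369974, minus strand): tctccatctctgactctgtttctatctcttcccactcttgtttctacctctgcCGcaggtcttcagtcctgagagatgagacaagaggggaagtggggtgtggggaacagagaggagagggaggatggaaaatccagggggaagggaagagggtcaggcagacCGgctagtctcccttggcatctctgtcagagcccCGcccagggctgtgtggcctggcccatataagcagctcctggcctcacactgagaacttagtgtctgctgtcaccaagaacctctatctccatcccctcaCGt
Ivl (chr3:92573686-92573985, minus strand): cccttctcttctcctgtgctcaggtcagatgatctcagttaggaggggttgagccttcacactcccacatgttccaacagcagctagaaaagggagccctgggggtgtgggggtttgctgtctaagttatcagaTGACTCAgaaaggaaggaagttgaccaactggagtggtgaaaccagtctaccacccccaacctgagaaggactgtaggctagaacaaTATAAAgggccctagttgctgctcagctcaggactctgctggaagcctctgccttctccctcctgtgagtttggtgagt
Lor (chr3:92083093-92083392, minus strand): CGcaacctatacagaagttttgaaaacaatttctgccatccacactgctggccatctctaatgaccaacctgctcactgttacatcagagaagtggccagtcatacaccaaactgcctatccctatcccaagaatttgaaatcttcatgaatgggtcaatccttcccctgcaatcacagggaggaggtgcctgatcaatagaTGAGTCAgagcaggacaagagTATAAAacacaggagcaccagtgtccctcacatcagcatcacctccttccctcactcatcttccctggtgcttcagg

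The windows differ in CG pairs in plain view: Klf4 holds 40, Grhl3 12, Cnfn 4, Lor 1 and Ivl 0. The CpG ratio is the number of CG pairs over that given by the C and G content, and it was 0.974 for Klf4, 0.492 for Grhl3, 0.170 for Cnfn, 0.0624 for Lor and 0 for Ivl. Over the 11 genes of the complex its median was 0.0579, with the highest value, 0.216, at Sprr1b. Over all 17491 genes the median was 0.577. An H3K4me3 peak inside the gene or within 5 kb, not only at the start site, was found at 36.3% of genes with a ratio of 0.6 or more. Among genes with a ratio below 0.6 the share was 12.4%. All 11 genes of the complex fall in the latter class. Cnfn and Sbsn (0.137) had a peak by this rule with a low ratio, and Elovl4 (0.926) and Dsp (0.686) had a high ratio and no peak within 5 kb. Grhl1 had 0.865. The peaks of Sbsn, Grhl1 and Grhl3 lay 22188, 12584 and 28226 bp from the nearest start site, so these ratios do not describe the sequence under them.

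**Figure D4:**
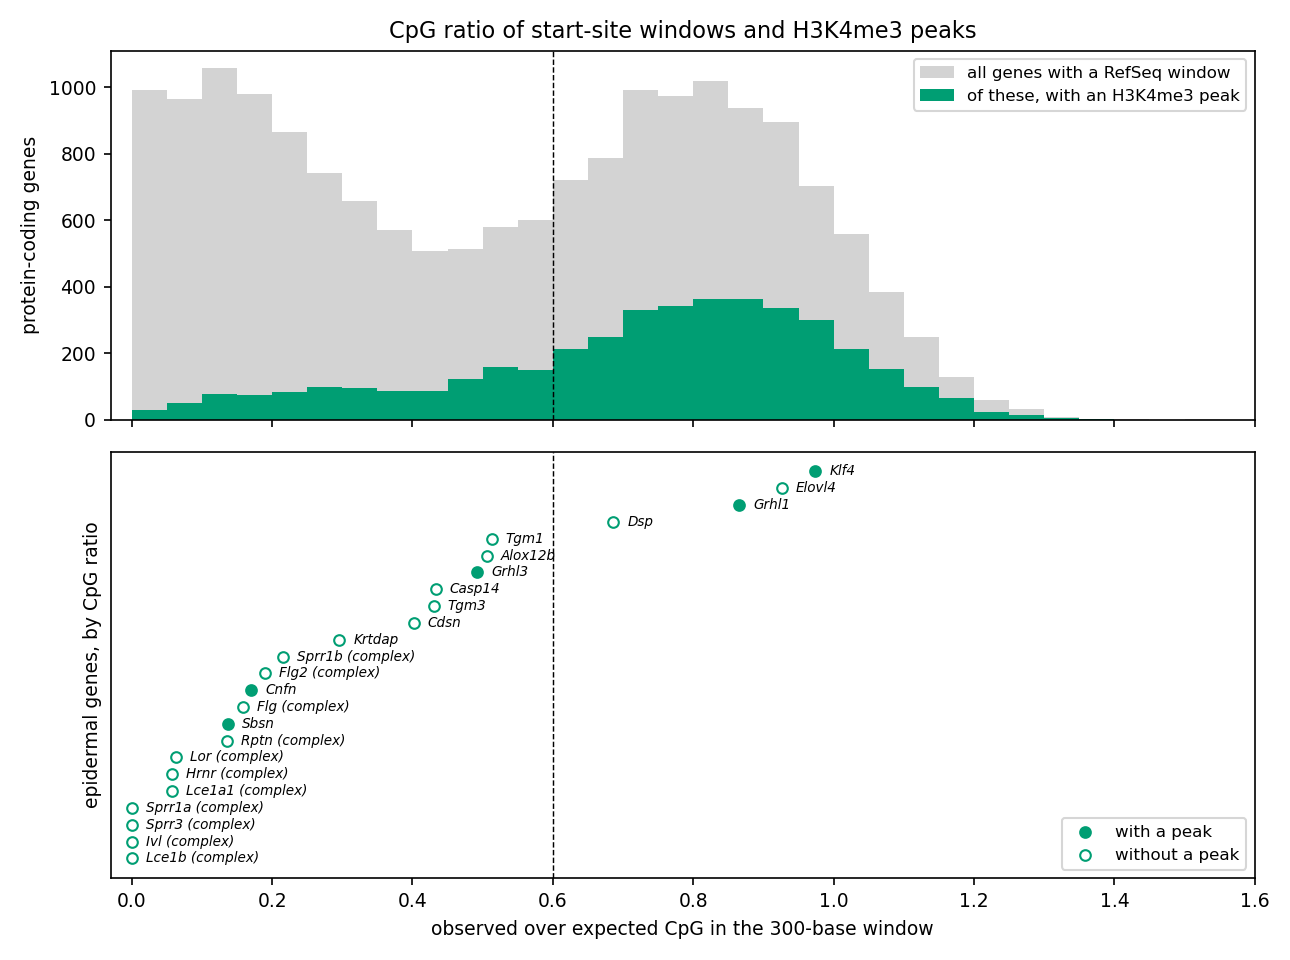
Top, number of protein-coding genes by CpG ratio of the start-site window, for all genes with a window (grey) and those with an H3K4me3 peak inside the gene or within 5 kb (green), with a dashed line at 0.6. Bottom, the 24 epidermal genes with a window in order of their ratio. The 11 genes of the complex, marked as such, all lie at 0.216 or less and have no peak.

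Short letters known from promoters of differentiated keratinocytes were then counted in the same windows, on either strand. TATAAA, the core of the TATA box, occurred in 8 of the 11 complex genes (Flg, Hrnr, Ivl, Lor, Rptn, Sprr1a, Sprr1b and Sprr3) and in 13.3% of all windows, or 20.4% of those with a CpG ratio under 0.6. All 8 had it on the gene's own strand, which was so for 8.99% of all windows. In Lor it began 27 bases before the start, in Ivl 29, in Sprr1b 30, in Hrnr and Rptn 31, in Sprr3 33, in Sprr1a 43 and in Flg 53. Outside the complex it was found 28 bases before the start of Tgm3 and 30 before that of Krtdap. TGANTCA, which AP-1 factors of the Fos and Jun families bind, occurred in 7 of 11 (Flg, Flg2, Ivl, Lor, Rptn, Sprr1a and Sprr1b) and in 7.03% of all windows, or 10.4% of those under 0.6. In Lor it lay 48 bases before the start and in Ivl 116. The GC box letters GGGCGG were in 0 of 11 and in 46.3% of all windows, or 20.2% of those under 0.6. These letters hold a CG pair and so could not occur in Ivl, Sprr1a, Sprr3 and Lce1b, whose windows have none. The median CpG ratio was 0.0579 in the complex and 0.228 in all windows under 0.6, so the GC box count is not separate from the CpG ratio. Outside the complex they were found in Klf4, Grhl1, Grhl3, Cnfn, Elovl4, Dsp, Tgm1 and Alox12b.

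The Grainyhead letters AACNNGTT were in 1 of 11 (Rptn) and in 4.16% of all windows. A single p53 half-site, matched exactly and searched by its consensus, was found in Flg2 and Hrnr of the complex, in Cdsn and Dsp outside it, and in 7.32% of all windows. None of these 4 genes had a p53 peak within 5 kb. A match is a description of the letters and not a bound site. TATAAA and TGANTCA do not overlap in Lor or Ivl, and both were present in 6 of the 11 complex genes and in 1.10% of all windows, the latter with TATAAA counted on the gene's strand.

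Other genes of the same pathway were described from 6 lists with 149 genes. WT p53 peaks were found at 8 of 149 (5.37%, against 6.74% of all genes). The highest fold was at S100a14, a calcium-binding protein gene, 422 bp outside it and also within 5 kb of S100a13, at 5.66-fold (10 fragments over 0.943, counting interval 2.98 to 9.98). Lipn, a lipase of the granular layer, had one inside the gene at 5.02-fold (9 over 0.992). The kallikrein protease genes Klk8 and Klk5, whose products shed surface cells, had peaks 748 bp and 1384 bp outside the gene at 4.35-fold and 3.64-fold, on 8 and 6 fragments. Junction genes with a WT p53 peak were Pkp2, a plakophilin gene (4.52-fold), and Jup, which encodes plakoglobin, with 2 peaks (4.09-fold and 3.99-fold). Among regulators, Vdr, the vitamin D receptor, had 1 peak (4.12-fold) and the nuclear receptor gene Rora 3 (up to 4.38-fold), all inside the gene.

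K17KO p53 peaks were found at 7 of 149 (4.70%, against 3.79%). Acer1, an epidermal ceramidase gene, had one 759 bp inside an end at 5.57-fold (10 over 0.973, 2.94 to 9.83) and Slc27a4, a fatty acid transporter gene, one 2840 bp outside at 5.21-fold. The others were the tight junction gene Tjp1 (5.11-fold), the Notch effector Rbpj (4.63), the aryl hydrocarbon receptor Ahr (4.50), the kinase Ripk4 (4.47) and Rora (4.0). Rora had peaks in both p53 lists, and they did not lie at the same place. The gene spans 734843 bp, against a median of 18.2 kb over the 149 genes. The K17KO p53 peaks at the 7 genes rested on 7 to 12 fragments, so their folds have wide counting intervals.

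H3K4me3 peaks were unevenly spread over the lists, with 39 of 149 genes in all (26.2%, against 23.9%). Regulators of differentiation had 21 of 40, among them Hopx (3.77-fold), Rbpj (3.17), Rxra (3.0), Ppard (2.80), Rora (2.75), Gata3 (1.93), Barx2 (1.88), Satb1 (1.79) and Cebpb (1.73). The folds of Hopx, Rbpj, Rxra, Ppard and Rora came from peaks of 12 to 48 fragments, 11397 to 471801 bp from the nearest RefSeq start site. Within 1 kb of a start site, Hopx, Rbpj and Rxra had peaks of at most 1.61, 1.68 and 1.64-fold. The Cebpb value came from a peak 1752 bp outside the gene, and the peak inside Cebpb was of 1.26-fold, with a −log10 q of 0.705. The Gata3 value came from a peak 5729 bp from the nearest start site. Suprabasal keratins had 5 of 6, led by Krt1 (4.84, on 31 fragments, counting interval 3.34 to 6.81) and Krt10 (4.28), with Krt80 (2.96), Krt78 (2.80) and Krt77 (2.64). The Krt10 value came from a peak of 9 fragments (2.19 to 7.74), 1748 bp outside the gene and 9833 bp upstream of its start site. The peak inside Krt10 was of 1.496-fold (1.26 to 1.76). The Krt78 and Krt77 peaks rested on 13 fragments over 4.01 and 14 over 4.67, with −log10 q values of 1.09 and 0.961. By p-value they ranked only 4849 and 4926 of the 5464 H3K4me3 peaks. The highest-fold peaks of Krt1, Krt80 and Krt10 had higher −log10 q values of 9.06, 3.46 and 2.47. Barrier lipid genes had 6 of 29, with the glucosylceramide synthase gene Ugcg at 3.66, the lipoxygenase gene Alox8 at 1.95 and Elovl3 at 1.77. For 3 of these 6 the peak lay inside a neighbouring gene: Pitx3 for Elovl3, Cdc20 for Elovl1 and Rnasek for Alox12. The Ugcg value came from a peak of 10 fragments, 10215 bp downstream of its start site. Its peak 349 bp downstream was of 1.28-fold, with a −log10 q of 0.593. Junction genes had 4 of 23, with Dsg2 (3.29) and the connexin gene Gjb2 (1.7) highest, and proteases and their inhibitors 2 of 20, at Prss8 and Ctsl. Further cornified envelope genes and neighbours of the complex had 1 of 31, the periplakin gene Ppl (1.72). Gene size differed between these lists, with a median of 31.9 kb for regulators and 4.17 kb for the envelope genes, and a longer gene offers more room for a peak. The part of gene length in these counts was not tested.

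**Figure D5:**
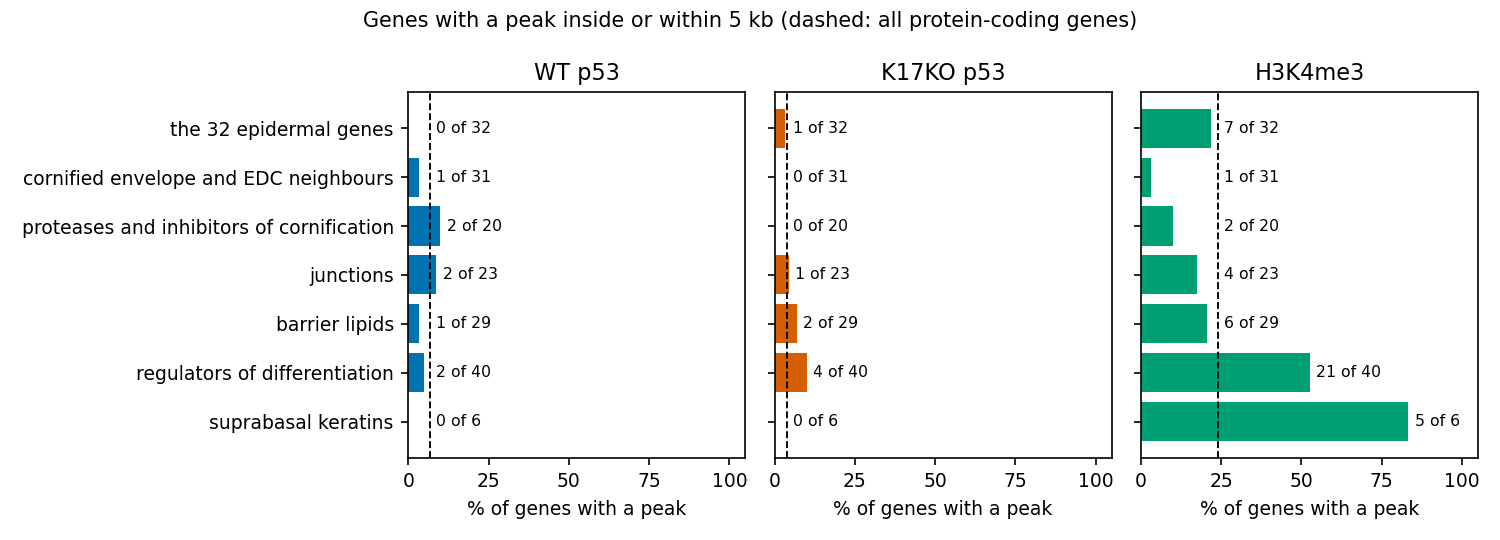
Share of genes with a peak inside or within 5 kb, in percent, for the 32 epidermal genes and 6 further lists of the pathway, with counts beside the bars. The dashed line is the share of all protein-coding genes in that list (6.74, 3.79 and 23.9%). For H3K4me3 the bars run from 1 of 31 envelope genes to 5 of 6 suprabasal keratins.

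Marker genes of the cell types that back skin can hold gave H3K4me3 peaks at 3 of 8 basal keratinocyte genes (Krt15, Itgb4 and Dst) and at 2 of 9 genes of the hair shaft and inner root sheath (Gata3 and Hoxc13). Melanocytes had 1 of 6 (Pmel), immune cells 1 of 8, fibroblasts of the dermis 1 of 8 (Col1a2) and endothelium 0 of 6. The basal keratin genes Krt5 and Krt14, which mark the basal layer, were among those without one. The immune call, at Cd3g, came from a peak inside the neighbouring gene Ube4a. For p53 the WT list had peaks at Col3a1 and Thy1 of the fibroblast genes, at Dst and at Mitf, and the K17KO list at Dst, Itgb4 and Hoxc13. These are 1 of 8 basal, 2 of 8 fibroblast and 1 of 6 melanocyte genes for WT p53, and 2 of 8 basal and 1 of 9 hair genes for K17KO p53. Over all protein-coding genes the shares were 23.9% for H3K4me3, 6.74% for WT p53 and 3.79% for K17KO p53. With only 6 to 9 genes a group, these counts do not show a difference between cell types, and none was tested.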

How the data were processed

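The data were 3 peak lists without a header, in the 10 columns of the narrowPeak layout. The deposited fold is the ratio of pileup to background at the summit, by the authors' caller. Its −log10 p and q stand in 2 further deposited columns, beside a deposited score and a summit offset. The labels name Bowtie2 version 2.2.5, SAMtools version 1.7, MACS2 version 2.1.2 and mm10, per the submitters' processing notes, with no role or order. No source used here names the control, the call threshold or the libraries of a list.

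Fragment numbers were solved from the fold, with 1 added to pileup and background, and from the Poisson p-value, and matched the deposited −log10 p within 0.001 for every peak. Gene positions and start-site windows came from RefSeq tables of GRCm38.p6, and all 32 members and 149 pathway genes matched by symbol. Python 3.11.15, pandas 2.3.3, numpy 2.4.6 and scipy 1.17.1 were used, and the assignment of peaks to genes and the fragment recovery were tested on simulated data.

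The members and gene lists were chosen with earlier results of these data known. Every member with a peak is named, with members within 50 kb of one, pathway genes with a p53 peak and the 20 pathway genes of highest H3K4me3 fold. Other genes named were chosen after their values were seen. Counts are described beside those of all protein-coding genes, without a set test. Alternatives changed the window (1 kb, 20 kb, gene ends only), the q-value (0.1, 0.01), the fold (upper 50%) and the overlap.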

Additional observations from a re-analysis of the deposited data

How the results depend on the processing

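The 0 of 32 for WT p53 could not rise under alternatives that take fewer peaks or a narrower window, so those settings say nothing of its stability. With the 20 kb window it could have risen and stayed at 0, where 10.8% of all genes had a peak. The nearest peak, 25.8 kb from Cdsn, lies beyond that window. The K17KO p53 count of 1 (Tgm1) became 0 when only peaks within 5 kb of a gene end were counted and 0 in the upper 50% of peaks by fold, since the Tgm1 peak lies deeper in the gene and ranks low. The H3K4me3 count of 7 ran from 6 to 8 under 6 alternatives and fell to 4 in the upper 50% by fold, where the share of all genes was 10.8%. Among the 149 pathway genes, the WT p53 count of 8 became 17 with a 20 kb window, 4 with gene ends only and 2 with a q-value limit of 0.01, where 10.8%, 2.72% and 0.818% of all genes had a peak. For K17KO p53 the count of 7 became 4 with gene ends only and 4 in the upper 50% by fold, with 2.37% and 1.91% of all genes. For H3K4me3 the count of 39 became 20 in the upper 50% by fold, and the other alternatives stayed within 1.5 times of each count. No paired analysis was possible because the lists carry no replicate numbers, and leaving out a replicate was not possible for the same reason. Depth limits the p53 values: a peak of 6 to 14 fragments has a counting interval spanning several fold.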
